A study of Cyprinus carpio with 12 samples.

Results

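The regions described here are the 41022 differentially methylated regions (DMRs) listed for common carp (Cyprinus carpio) sperm stored for 14 days against fresh sperm. They are all rows of the sperm list, and they make up 41022 of the 80043 regions in the sperm and embryo lists together. Whole-genome bisulphite sequencing, which turns unmethylated but not methylated cytosines into thymines, was applied to 4 groups of 3 libraries. These were fresh sperm, stored sperm and mid-blastula embryos obtained with either. Fresh sperm was taken at day 0 after stripping, and stored sperm was kept on ice in an artificial seminal plasma until day 14. The study's methods give the males as 5 years old and induced with carp pituitary. They place fresh and stored samples in the same males and mention repeated hormone injections and stripping, but not which stripping gave which sample, so an effect of storage and an effect of the stripping date cannot be told apart. The labels name no transgene or mutation. For each region the list holds 1 mean level for the 3 libraries of a group. There is thus no error on any level and no replicate spread to set a difference against, and every comparison below is a description with no test. The labelled cell type could not be checked against marker genes, since methylation of selected regions was the only readout used here.

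Methylation of cytosines in CpG dinucleotides is copied by the maintenance enzyme Dnmt1 when a cell divides, and it is removed by Tet enzymes or lost through divisions without copying. Mature spermatozoa neither divide nor transcribe their condensed genome to any extent. In fish, the sperm genome is highly methylated outside CpG-rich promoters, and in zebrafish the early embryo takes on the paternal pattern. The carp genome arose by hybridisation of 2 ancestors, and its chromosomes form pairs of partners, named A and B.

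Of the 41022 regions, 25436 had a higher level in stored sperm (hyper) and 15586 a lower level (hypo). The hyper share was 62.0% on all sequence and 62.3% on the 50 chromosomes, which held 37879 regions. The majority of gains turned around among the 3805 regions with a difference of at least 20 points, where 44.9% were hyper. Of 35962 chromosomal regions in the embryo list 50.4% were hyper. The remaining 3143 sperm regions lay on unplaced sequence, with 58.6% hyper, and were left out of everything on position. Every listed region had a difference of at least 10 points, at least 5 CpG cytosines and a p-value below 0.05. The size of the differences is therefore set in part by the list itself. The study's methods name a fold change in level as the criterion, and not a difference in points. The paper also reports fewer sperm regions than are listed here, so its counts are not those of this list. The smallest listed difference was 10.0 points, the largest gain was 55.8 points and the largest loss fell by 58.7 points. A hyper region typically went from 83.2% in fresh sperm to 95.8% in stored sperm, and a hypo region from 92.4% to 78.3% (medians). The regions were short, with a median length of 89 bp (quartiles 47 and 164 bp, range 6 to 966 bp), and those on chromosomes and unplaced sequence together spanned 4771694 bp. Per megabase of chromosome there were 24.8 regions.

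Every chromosome took part, and on each of the 50 the hyper regions outnumbered the hypo regions. The density of regions was 24.5 ± 2.68 per Mb (mean ± SD over 50 chromosomes). It was lowest on A15, with 590 regions at 20.0 per Mb, and highest on A3, with 1275 regions at 32.4 per Mb. Chromosomes B3 and B22 followed A3 at 29.4 and 29.2 per Mb, and A10 and B2 lay near A15 at 20.3 per Mb each. The densities therefore spread over less than a doubling from the sparsest to the densest chromosome. On A3 both directions were dense, with 19.0 hyper and 13.4 hypo regions per Mb, the highest value of the 50 chromosomes for each. Across chromosomes the densities of hyper and hypo regions went together (Pearson r = 0.70, Spearman's coefficient 0.69 over 50 chromosomes).

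The hyper share was 62.5 ± 2.33% (mean ± SD over 50 chromosomes), and the counting error of a single chromosome's share was 1.81 points on average (binomial SD). The SD between chromosomes was the wider value. However, the binomial SD takes regions as independent although close neighbours often shared their direction, so no excess spread can be read from it. The lowest share was 58.3% on A7, with A10 at 58.4%, A11 at 58.6% and A3 at 58.7%. The highest was 67.8% on B25, with B12 at 67.3% and A19 at 66.7%. The density of regions rose weakly with chromosome length (r = 0.42, Spearman's coefficient 0.27) and showed hardly any relation to gene density (Spearman's coefficient -0.08). Over the 25 pairs, partner chromosomes were hardly alike. The density on an A chromosome against that on its B partner gave r = 0.20 and a Spearman's coefficient of 0.11. For the hyper share r was -0.08. The densest chromosomes, A3 and B3, were partners (32.4 and 29.4 per Mb), whereas A15 and B15 lay apart (20.0 and 28.1 per Mb). The embryo list followed the same chromosomes in density (r = 0.89) but not in hyper share (r = 0.13). Both lists share the genome, its CpG content and the procedure that defined the regions, so these correlations are descriptions only.

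**Figure D1:**
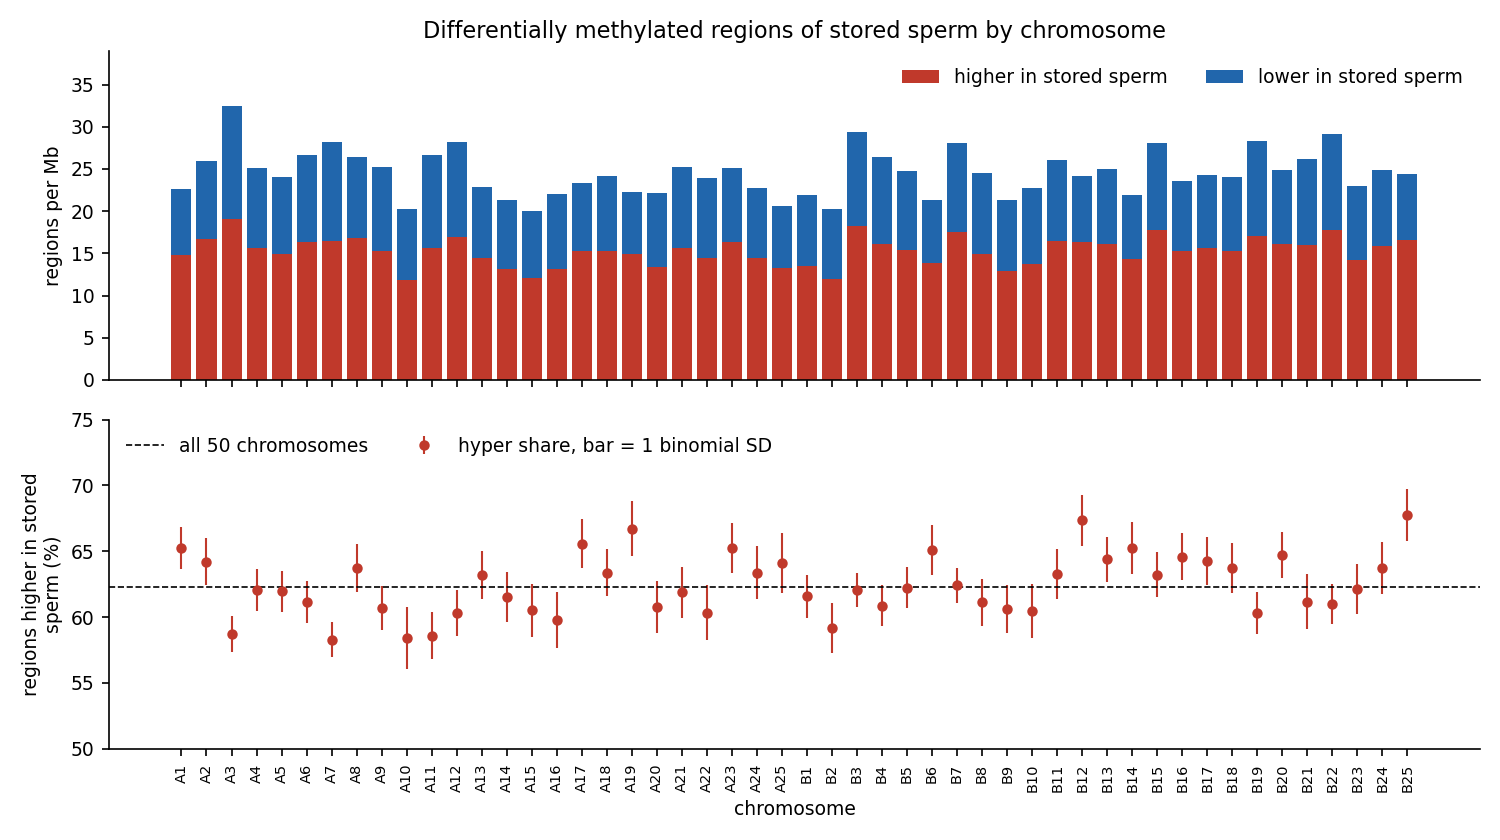
Regions per Mb on each of the 50 chromosomes, split by direction (upper panel), and the share of regions higher in stored sperm with 1 binomial SD as error bar (lower panel, axis from 50%). A3 stands highest at 32.4 regions per Mb and A15 lowest at 20.0, and every chromosome lies above 50% hyper, from 58.3% on A7 to 67.8% on B25.

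Pooled over all chromosomes, density varied mildly along their length, and this pooling averages out local differences. With each chromosome cut into 10 equal parts, density was 26.3 regions per Mb in the first of these parts, 23.0 in the seventh and 24.9 in the last. The hyper share was 60.5%, 65.1% and 58.8% in the same parts. The first part was thus the densest and the seventh the sparsest, while the last lay below the second (25.8) and the ninth (25.7). The first and last parts had the lowest hyper shares, and their median CpG-cytosine density was the highest of the 10, at 7.58 per 100 bp in the first and 8.06 in the last part against 6.48 in the sixth.

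Neighbouring regions were mostly far apart, with a small surplus of very close ones. The 37829 gaps between neighbours had a median of 23.8 kb and a mean of 40.2 kb, and 5% of them were below 0.366 kb and 5% above 135 kb. The coefficient of variation of the gaps was 1.22, where independent positions at a constant rate would give about 1. Of the gaps, 794 (2.10%) were under 100 bp, 3154 (8.34%) under 1 kb and 3692 (9.76%) over 100 kb. For embryos the median gap was 24.4 kb and 8.82% of gaps were under 1 kb, so the spacing of both lists was alike. The longest stretches without a region were 736 kb on B20, from 28683013 to 29418685, with 32 annotated genes in it, and 723 kb on A17, from 12713614 to 13436704, with 23 genes.

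The surplus of close neighbours was larger for losses than for gains. Taken alone, hypo regions had a median gap of 62.6 kb against 40.3 kb for hyper regions, yet 7.21% of their gaps were under 1 kb (1026 of 14236) against 3.95% for hyper regions (931 of 23543). In the embryo list the same shares were 5.12% for hypo and 5.22% for hyper regions. Regions with no neighbour within 1 kb (32109, or 84.8% of those on chromosomes) were 64.6% hyper, with a median level of 89.3%. Regions in groups of 2 (4386) were 51.8% hyper, with a median level of 79.5%, and those in groups of 3 or more (1384) were 41.9% hyper, with a median level of 68.2%. The level fell along with the hyper share, and the part of one in the other was not tested. Within the class of regions whose level averaged 75% or more, the shares were 68.8% hyper alone, 60.2% in pairs and 49.4% in larger groups. Levels within this class were not compared between single, paired and grouped regions.

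Among pairs with a gap under 1 kb and no further neighbour, gains were slightly ahead, whereas losses led among uniform groups of 3 to 5. Of 2193 such pairs, 698 were both hyper, 619 both hypo and 876 mixed. Of 334 groups of 3 regions, 36 were all hyper, 79 all hypo and 219 mixed. Of 68 groups of 4, 3 were all hyper and 14 all hypo. Of 16 groups of 5, 1 was all hyper and 4 all hypo, and all 5 groups of 6 regions were mixed. The regions in groups of 3, 4 and 5 were 43.3%, 39.3% and 33.8% hyper, which by itself favours uniform losses. The counts of uniform groups that these shares alone would give were not computed. The shortest of the groups of 6 lay on A25, from 7069104 to 7070597, within LOC109112268, and held 6 regions in 1494 bp. Its regions went from 85.2% to 96.6%, 98.7% to 84.7%, 67.8% to 87.5%, 91.1% to 73.8%, 94.3% to 68.8% and 75.1% to 58.8% in order along the chromosome. Gains and losses of over 10 points thus followed each other within this short stretch. A name that starts with LOC is a placeholder that RefSeq gives to a gene with no assigned symbol, and no role is given for such genes here.

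A second group of 6, on B15 from 26613470 to 26615191, lay 914 bp outside LOC109050415 and was the richest in CpG, with 119 CpG cytosines. Its first region rose from 55.1% to 71.5%. The other 5 fell, the widest from 78.8% to 42.0%. All 6 regions were of intermediate level in fresh sperm, between 55.1% and 78.8%. On the same chromosome, a group of 6 from 22159819 to 22162851, within LOC109075045 and LOC122139879, crossed from a low to a high level. Its first 3 regions rose from 21.9%, 8.94% and 22.1% to 40.0%, 29.1% and 32.7%, while the following region fell from 95.4% to 82.1%. Of the other groups of 6, the group on A18 from 10075032 to 10076732 had 3 hyper regions and that on A18 from 26643491 to 26648159 had 2. The shortest group of 5, in 800 bp of LOC109099699 on B22, had 1 gain and 4 losses.

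The direction of neighbours agreed most often at short distance. Among the 498 pairs less than 50 bp apart, 382 (76.7%) had the same direction, 150 both hyper and 232 both hypo. With the hyper share of those regions, 41.8%, pairing without regard to distance would give 51.4%. The share was 60.5% at 50 to 100 bp, 64.7% at 100 to 200 bp, 56.7% at 200 to 300 bp and 53.6% at 300 to 1000 bp, where 50.1% would come from the hyper share alone. Beyond 1 kb it stood at 54.5%, against 53.7% from the hyper share, so that a small excess remained. Of the 70 pairs that touch at a border base, 55 had the same direction and 15 the opposite one. Regions of opposite direction therefore met with no unlisted base between them.

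The level itself was shared over longer distances than the change. Pearson's r between neighbours' mean levels was 0.86 under 50 bp, 0.68 at 300 to 1000 bp, 0.38 at 1 to 3 kb and 0.17 at 3 to 10 kb. For the difference between stored and fresh sperm it was 0.52, 0.10, 0.02 and -0.01 at the same distances (498, 1458, 2436 and 5757 pairs). Pairs share libraries and reads, so these are descriptions. In the embryo list the share with the same direction was 68.9% under 50 bp (511 pairs) and 53.5% at 100 to 200 bp, and over all pairs under 1 kb it was 55.5% against 60.1% in sperm. The difference between the lists was not tested.

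**Figure D2:**
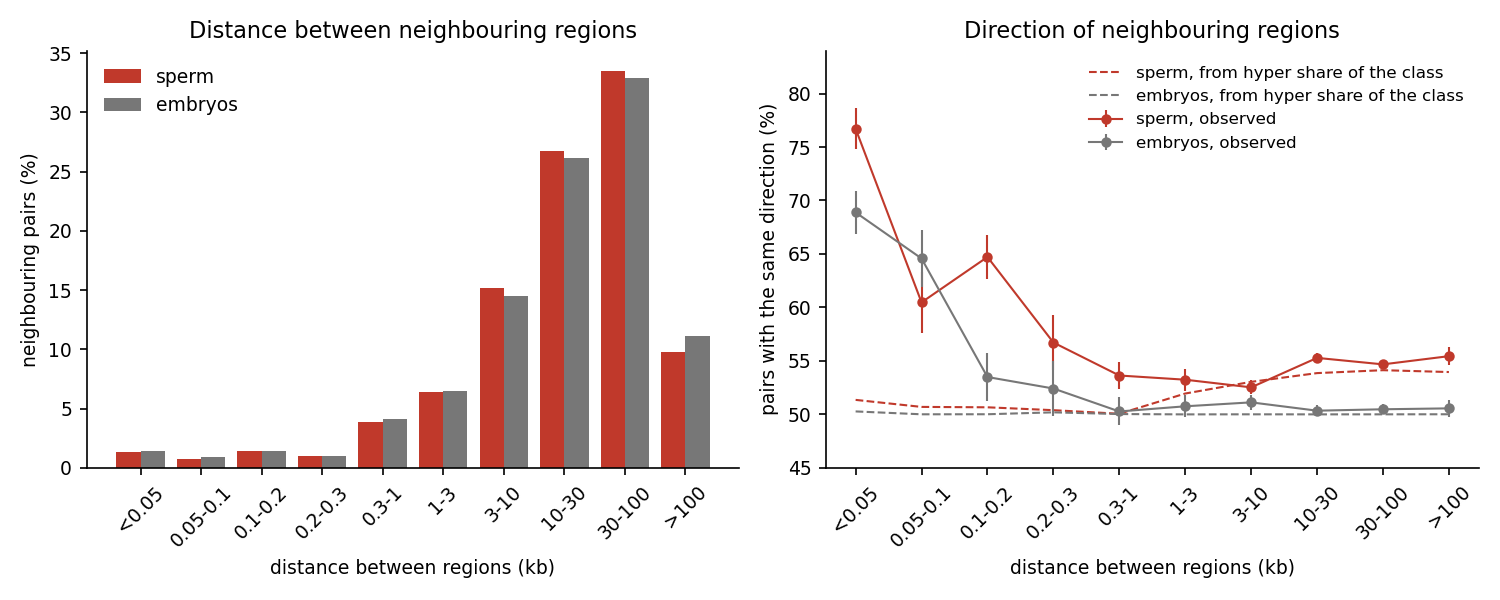
Share of neighbouring pairs by distance in kb (left) and share of pairs with the same direction of change (right, axis from 45%, error bars 1 binomial SD) for the sperm and embryo lists. Dashed lines give the share that follows from the hyper share of each distance class. In sperm the solid line falls from 76.7% under 0.05 kb to 53.6% at 0.3 to 1 kb and then stays close to the dashed line.

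Runs, meaning stretches of consecutive regions with the same direction whatever their distance, were long for gains and short for losses. The 8550 hyper runs held 2.76 regions on average and the 8542 hypo runs 1.67, where the hyper share alone would give 2.65 and 1.61. Runs of 5 or more held 40.2% of hyper and 9.51% of hypo regions, where the hyper share alone would give 37.8% and 7.06%. The contrast between gains and losses was thus close to what the hyper share gives. Runs of at least 10 regions numbered 166 for gains and 3 for losses, and for these no such value was computed. The longest hyper run had 29 regions and the longest hypo run 12. The longest runs of the embryo list were 22 and 12.

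The run of 29 gains lay on B21 from 9498069 to 10318666 and spanned 821 kb. Its median level went from 83.6% to 96.0%, and 17 of its regions fell in 5 genes, all LOC genes. LOC109088616, a protein-coding gene of 192 kb, held 8 of them. The run of 27 gains on B12, from 14542843 to 15693265, crossed 42 annotated genes and touched 14 of them. Of its regions 6 lay in LOC109045614, of 200 kb, which held the most. A further 3 lay in usp54b, a gene of the ubiquitin-specific protease family, where levels of 82.1% to 88.3% in fresh sperm became 96.7% to 98.7%. Single regions lay in bmpr1ab, a type I receptor for bone morphogenetic proteins (86.3% to 98.7%), and in zeb1b, a zinc finger repressor of epithelial genes (81.1% to 92.9%). The same held for etv4, an ETS transcription factor (76.8% to 88.6%), for ttll6, a tubulin polyglutamylase (84.3% to 96.2%), and for sost, which encodes the secreted Wnt antagonist sclerostin (88.8% to 99.0%). Over the genes of this run fresh levels ranged from 70.4% in LOC122133867 to 89.0% in LOC109091098. Over the whole run, with the regions outside genes, the lowest fresh level was 30.6%.

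On B3, 25 consecutive gains from 20699666 to 21509257 included 7 in LOC109045151. A further 4 lay in rarab, a retinoic acid receptor, with levels of 74.6% to 85.0% in fresh and 85.5% to 96.8% in stored sperm. On B25, 20 gains from 7728273 to 8538200 included 6 in lrrc4ca, which encodes a leucine-rich repeat adhesion protein of synapses, with the widest from 72.3% to 92.5%. On A9, 18 gains from 1556513 to 2143200 included 4 in kalrna, a guanine nucleotide exchange factor, 4 in myo3b, a class III myosin, 2 in the kinase gene tlk1a and 1 in hat1, a histone acetyltransferase. One of the kalrna regions was low in both groups and rose from 18.4% to 35.4%. In hat1 the region rose from 82.8% to 93.2%.

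The hypo runs were shorter, and their fresh medians ranged from 69.3% to 91.5% against 83.6% to 84.8% in the 5 longest hyper runs. The longest, 12 losses on B13 from 5532663 to 5791194, went from a median of 69.3% to 53.0%, and 7 of its regions lay in wdr11, a WD-repeat protein involved in vesicle traffic and ciliogenesis. On B9, 11 losses from 32084539 to 32400925 included 3 in LOC109083327, the widest from 73.2% to 42.7%. On B15, 10 losses from 1749371 to 2079932 touched none of the 11 genes annotated there. The runs of 9 losses on A1, from 34629560 to 34739229, and on B8, from 2322664 to 2479264, touched 1 gene each.

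Fixed windows of 100 kb gave the same picture of mild clustering. Of 15327 windows 13.7% were empty, the mean was 2.47 regions, the variance was 1.57 times the mean and 90 windows held 10 or more. The hyper share fell from 65.0% in windows with a single region to 54.0% in those with 10 or more, with median levels of 89.6% and 81.0%. The fullest window, on A9 from 30400001 to 30500000, held 23 regions, 9 hyper and 14 hypo, and none lay within a gene. The next were on A25 from 7000001 to 7100000, with all 16 regions in LOC109112268, and on B3 from 6200001 to 6300000, with 15 of 16 in the pseudogene LOC122136721. On A7, the window from 32400001 to 32500000 held 15 regions, of which 7 lay in LOC122145788. A window on B3 from 41100001 to 41200000 also held 15, with 2 in LOC109061541. The first 100 kb of B13 held 14 regions, 10 of them hypo, in a window where 8 ribosomal RNA genes are annotated, and its median level went from 89.2% to 72.0%. Ribosomal RNA genes occur in many near-identical copies, so the position and level of these regions are uncertain.

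The deposited number of cytosines per region was read as counting both strands, which the methods do not state. In 235 regions (0.573%) there were more CpG cytosines than a single strand of that length can hold, up to 92.3 per 100 bp. On this reading the minimum of 5 stands for CpG cytosines on either strand. Of all regions, 24529 (59.8%) held exactly 5, against 1695 with 6 and 5785 with 7. The median density was 7.25 CpG cytosines per 100 bp (quartiles 3.89 and 13.6). Hyper regions were less dense than hypo regions, with medians of 6.48 and 8.64, whereas in the embryo list the medians were 8.15 and 8.20.

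The direction of change in sperm followed both the number and the density of CpG cytosines. The hyper share was 65.3% with 5 cytosines, 64.5% with 6, 62.9% with 7 and 59.7% with 8 or 9. It was 49.4% with 10 to 14 (3230 regions), 41.8% with 15 to 19 (1044) and 32.1% with 20 or more (651). In each class of 10 or more cytosines losses were thus in the majority, and in each class of fewer cytosines gains were. In the embryo list the share was 50.0% with 5 cytosines and 54.6% with 20 or more. Regions with more cytosines also had lower levels, with a median of 89.8% at 5 cytosines and 60.7% at 20 or more. Among regions of mean level 75% or higher the share ran from 68.1% (21334 regions) to 42.4% (158 regions). The median level fell within this class too, from 90.5% at 5 cytosines to 82.1% at 20 or more. The part of the level in the shares by number of cytosines was not tested. By density, the hyper share was 71.0% below 3 per 100 bp, 69.0% at 3 to 5, 61.5% at 5 to 10, 55.5% at 10 to 20 and 54.3% at 20 or more. Within mean levels of 75% or higher these became 72.6%, 72.2%, 67.0%, 62.5% and 60.1%. Gains were thus the majority in every density class, over all levels and at 75% or higher. The read depth behind regions of different density is not in the list, so its part in these shares was not tested.

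**Figure D3:**
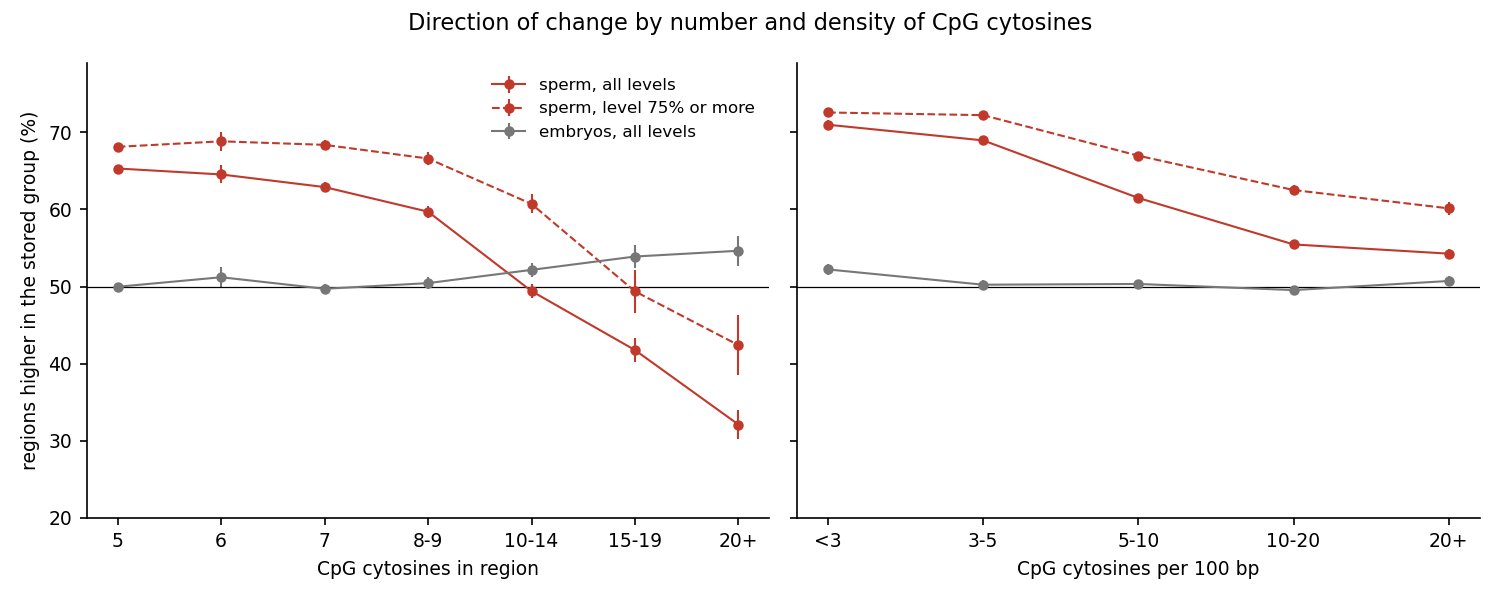
Share of regions higher in the stored group against the number of CpG cytosines per region (left) and their density per 100 bp (right), with 1 binomial SD as error bar and a line at 50%. The dashed line takes sperm regions with a mean level of 75% or higher only. For sperm the share falls from 65.3% at 5 cytosines to 32.1% at 20 or more, while the embryo list stays between 49.5% and 54.6%.

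The region with the most CpG cytosines, 60 in 363 bp on B1 from 19060540 to 19060902, lay in uncx4.1, a homeobox gene of somite and neural patterning, and fell from 65.0% to 44.6%. The next, 52 in 444 bp on A6 from 10603946 to 10604389, lay in nck2b, an SH2/SH3 adaptor of receptor tyrosine kinase signalling, and fell from 72.2% to 60.4%. Of the 6 richest regions 5 fell. Those in LOC109084103, LOC122134646 and LOC109068500 fell from 27.5% to 16.5%, from 28.3% to 6.94% and from 66.8% to 47.3%. The exception lay 1465 bp from LOC122141743 and rose from 61.9% to 74.2%. The densest region, 12 cytosines in 13 bp in LOC109057293, fell from 21.0% to 6.40%. The next, 7 cytosines in 8 bp at 8870 bp from LOC109078299, rose from 66.0% to 76.6%. In slc35a1, which encodes the Golgi transporter for CMP-sialic acid, 5 cytosines in 6 bp fell from 99.3% to 87.6%, and as many in 6 bp in LOC109092473 rose by 12.5 points from 82.5%. The sparsest region, 5 cytosines in 553 bp in LOC109112422, rose from 85.7% to 98.0%, while the sparse regions in LOC109047701 and LOC109078413 fell from 94.4% to 74.2% and from 82.7% to 61.6%.

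Of the 55089 annotated genes on the chromosomes, 12443 (22.6%) held at least 1 region in their body, and 749 (1.36%) held 5 or more. The 749 genes contained 5479 regions, 14.5% of those on chromosomes. Of the 749, 564 were LOC genes (75.3% of the 749, against 80.0% of all genes on chromosomes), and the other 185 had a name. The number of regions followed the length of the gene (Pearson r = 0.76, Spearman's coefficient 0.50 over all 55089 genes). Per 100 kb of gene there were 2.60 regions in genes under 3 kb, 2.51 in genes of 30 to 100 kb and 2.55 in genes over 200 kb. Named and LOC genes of at least 200 kb held 2.54 and 2.55 regions per 100 kb. Long genes thus held many regions at a density close to that of short ones. Pseudogenes held 1.94 and long non-coding RNA genes 3.05 regions per 100 kb. Of the 749 genes, 686 had both directions, 57 only gains and 6 only losses, and the hyper share of their regions was 62.5%. The counts that this share alone would give were not computed. In the embryo list 648 genes held 5 or more regions, and 340 genes did so in both, 45.4% of the sperm genes and 52.5% of the embryo genes.

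**Figure D4:**
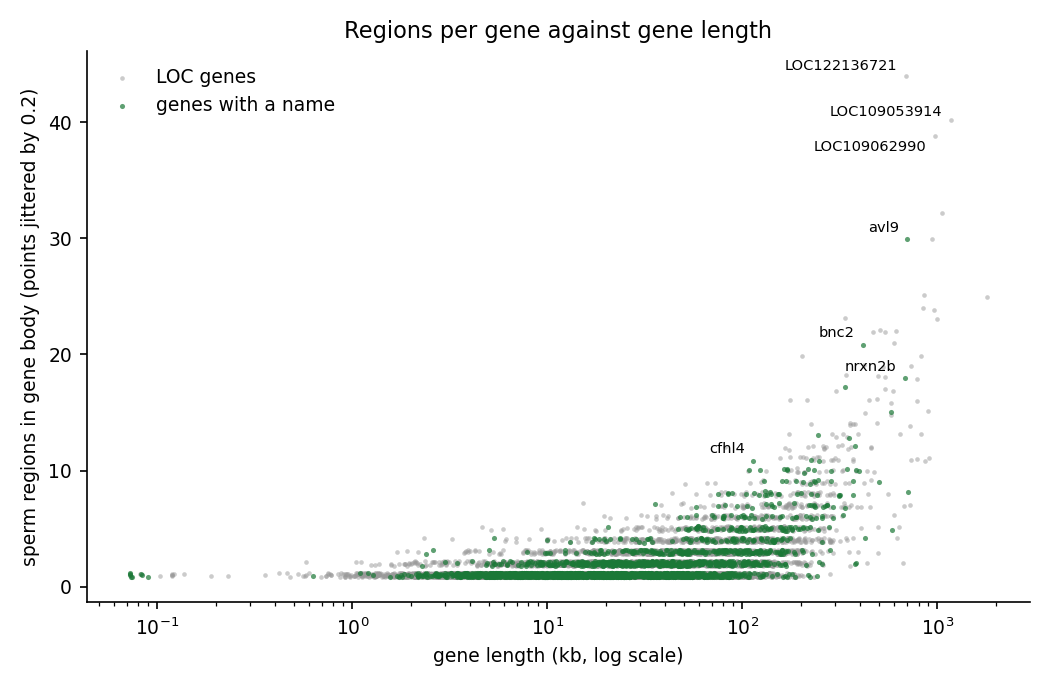
Number of sperm regions in the body of each of the 12443 genes with at least 1 region against gene length in kb (log scale), for LOC genes and genes with a name. Counts rise with length, LOC122136721 stands highest with 44 regions and avl9 is the named gene with the most, at 30.

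Among genes with a name, avl9, a gene linked to secretory traffic that spans 701 kb on A12 in this annotation, held the most regions. Its 30 regions were 16 gains and 14 losses, spread from 25.3 to 695 kb from its lower end. Fresh levels ranged from close to 0 to 99.0%, the widest gain went from 48.7% to 75.7% and the widest loss from 88.8% to 59.2%. LOC109099523 lies within avl9 and held 10 regions, which count for both genes. In bnc2, a zinc finger gene needed for pigment stripes in zebrafish, on B1, 15 of 21 regions gained, the widest from 60.9% to 81.7%. This gene overlaps the pseudogene LOC109048290, which held 23 regions, so a part of the regions counts for both.

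The synaptic adhesion gene nrxn2b held 18 regions, 9 in each direction, with the widest gain from 61.2% to 86.9% and the widest loss from 81.0% to 60.4%. In tmem132e, a membrane protein gene needed for hearing in zebrafish, 17 regions (9 gains) included a gain from 15.4% to 39.8% and a loss from 61.0% to 32.4%. The ubiquitin ligase family gene rnf150b held 15 regions, of which 10 gained, and 1 of these rose from 13.6% to 44.2%. It overlaps LOC109085971, which also held 15 regions with 10 gains, so these regions count for both genes. In cntnap2a, a neurexin-family adhesion gene, 9 of 13 regions gained. With a hyper share of 62.3% on chromosomes, most genes with many regions would hold both directions by arithmetic alone. Mixed directions were also the usual state of a gene with many regions here.

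The same held for the remaining named genes of the 12 with the most regions. The deubiquitinase family gene usp43a held 12 regions (8 gains), the complement factor H-like gene cfhl4 11 (7 gains) and the mannose receptor gene mrc1a 11 (6 gains). The tRNA-modifying enzyme gene cdkal1 held 11 (7 gains), a gene known only by its clone name 13 (7 gains) and rnf121, a ubiquitin ligase of the secretory pathway, 10 (4 gains), a count that other named genes also reached. In mrc1a 1 region rose from 1.79% to 13.5%. In cdkal1 the widest change was a loss from 47.7% to 25.9%.

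LOC genes held the highest counts. The pseudogene LOC122136721, of 690 kb on B3, held 44 regions, 24 gains and 20 losses, and 27 of them had a mean level under 75% and 14 one under 25%. It was thus of much lower level than the list as a whole, where 21.8% of regions were under 75%. Its median was 49.8% in fresh and 53.9% in stored sperm, its widest gain went from 40.4% to 63.0% and its widest loss from 22.5% to 2.25%. LOC109084161 on B22, with 30 regions, was alike in level, with medians of 49.9% in both groups and 15 regions in each direction. The other LOC genes with over 30 regions were of high level. LOC109053914 on B8 held 40 regions (27 gains), LOC109062990 on A4 held 39 (19 gains) and LOC109085447 on B19 held 32 (21 gains), with fresh medians of 84.9%, 84.5% and 83.7%. LOC109113276 and LOC109103223 held 25 regions each, LOC109082837 and LOC122133921 24 each, LOC109062242 23 and LOC109095006 22, a count that 3 further LOC genes also reached. The fresh medians of LOC109103223 and LOC109062242 were lower, at 69.9% and 71.9%. Those of LOC109113276, LOC109082837, LOC122133921 and LOC109095006 lay between 83.2% and 85.4%. Some of these genes share regions with others, which count for both. LOC109084161 spans LOC109078434 (14 regions) and LOC109103223 spans LOC109070511 (11). LOC122133921 overlaps a part of LOC109066939 (20).

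The 8 genes with the most regions per 10 kb, among those with at least 4, were short, and losses were frequent in several of them. In short genes as a whole gains led, with 59.7% of regions in genes under 3 kb and 62.4% in genes of 3 to 10 kb. Over all chromosomes, regions in close groups of 3 or more were 41.9% hyper. LOC109098881, of 2.33 kb on B8, held 4 regions, all of them losses, with medians of 67.4% and 52.0%. LOC109050385, of 5.96 kb on A2, held 5, all of them losses, with medians of 68.7% and 55.0%. In LOC109076748, of 4.64 kb on B2, 4 of 5 regions fell, the widest from 91.3% to 64.3% with 18 CpG cytosines. In LOC109089879, a long non-coding RNA gene on A6, and in LOC122141952, 3 of 4 regions fell. In LOC109065977, by contrast, 3 of 5 regions gained, and in LOC109047183 3 of 4. The named gene among the 8 most packed was cxcr2, a chemokine receptor of neutrophils, on A9. Its 4 regions in 5.30 kb were 2 gains and 2 losses, the widest of each going from 20.4% to 41.8% and from 47.2% to 25.5%.

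Some genes changed in a single direction over at least 6 regions, and the 7 with the most gains, 8 or 9 each, were LOC genes. With a hyper share of 62.3% on chromosomes, some such genes would arise by arithmetic, and more with gains only than with losses only. LOC109058307 held 9 gains and no loss, with fresh levels of 73.5% to 88.4% and a stored median of 95.2%. The next 6 had 8 gains each. LOC109109539 had 7, as did the named gene ankrd11, a chromatin regulator (chosen after its values were seen). In LOC109069727 on A3 the 8 gains included the widest of these genes, from 52.0% to 96.3%, and in LOC109094668 on A8 a region rose from 41.9% to 83.4%. For losses, wdr11 led with 7 regions, whose median went from 66.1% to 50.6%. It was followed by LOC122134941, LOC122136711 and LOC109098819 with 6 each, whose widest losses went from 58.3% to 25.9%, from 53.7% to 27.7% and from 48.6% to 28.6%. For wdr11 the embryo list held 17 regions.

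**Figure D5:**
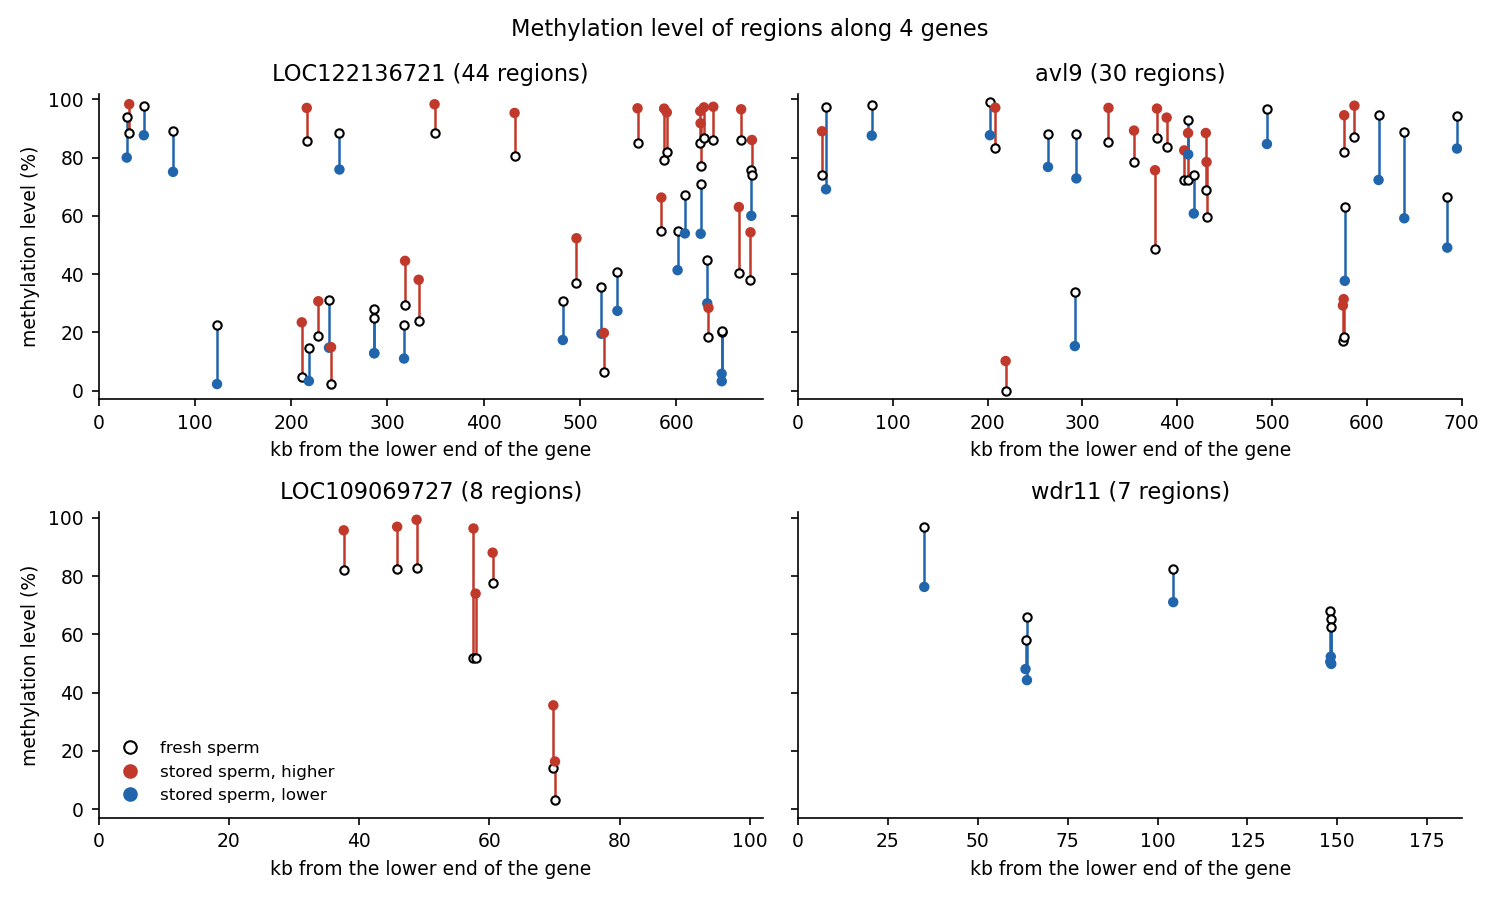
Methylation level (%) of every sperm region in fresh sperm (open circles) and stored sperm (filled, red where higher and blue where lower) against the distance in kb from the lower end of the gene, for LOC122136721, avl9, LOC109069727 and wdr11. Gains and losses both occur in the first 2 genes, all 8 regions of LOC109069727 rise and all 7 of wdr11 fall.

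The gene lists that follow, of which only some concern sperm, are read against the 22.6% of all genes with a region. Their members were matched by gene symbol. Copies known only by a LOC number are therefore not in them, and 80.0% of all genes on chromosomes are LOC genes. The 38 hox symbols, for example, matched 22 genes, so the lists do not cover whole families. Of 49 genes of the sperm flagellum and axoneme 18 held a region, 28 regions in all, of which 20 were gains (71.4%, against 63.8% over all genes). The axonemal dynein heavy chain genes dnah2 and dnah5 held 5 each, with 4 and 3 gains. In dnah9, of the same family, a region rose from 65.3% to 96.0%, and in the dynein assembly factor gene dnaaf2 a region fell from 65.4% to 39.5%. These genes had a median length of 13.6 kb against 6.93 kb for all genes. Per 100 kb they held 2.23 regions, against 2.47 over all genes.

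Of 9 genes listed for sperm-egg recognition and fertilisation 2 held a region, and both regions rose. In bncr, which encodes the egg surface protein Bouncer that lets sperm enter in zebrafish, a region rose from 54.7% to 76.5%, and in the peroxiredoxin gene prdx6 a region rose from 84.4% to 96.4%. Of 18 meiosis genes, smc1b (a meiotic cohesin subunit), shoc1 (crossover formation) and rad51b (recombination repair) held 4 regions, all gains of 10.8 to 12.7 points at their widest. Of 9 genes of DNA methylation and hydroxymethylation enzymes 2 held a region, 3 regions in all, of which 2 were gains. Among them dnmt3ab, a de novo methyltransferase, held 1 gain and 1 loss, the latter of which fell by 12.7 points to 82.3%.

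The list of giant neuronal and muscle genes, chosen for their length, had a region in 47 of 53 genes, 225 in all, with 153 gains (68.0%). Per 100 kb it held 2.22 regions. Its share of genes with a region was 88.7%, and its median gene length was 174 kb. Of all genes of 100 to 200 kb, 93.7% held a region, and of those over 200 kb 99.4%. In kcnma1a, a calcium-activated potassium channel gene, 8 of 10 regions gained, the widest from 39.7% to 73.1%, and in robo2, an axon guidance receptor gene, 6 of 10 did. Of 20 genes of mTOR and insulin signalling 11 (55.0%) held 20 regions, 13 of them gains. The 20 genes had a median length of 12.0 kb, and of all genes of 10 to 30 kb 31.1% held a region. Per 100 kb this list held 5.48 regions, against 2.47 over all genes, and its members akt3a and akt2 held 11 of the 20. Of these kinase genes akt3a held 6 regions in 87.2 kb, and akt2 held 5 in 20.4 kb, of which 3 were losses, the widest from 74.6% to 56.8%. None of the 22 hox cluster genes matched by symbol held a region. The same held for the 13 matched transcription factor genes of pluripotency and zygotic activation. Copies known only by a LOC number were not looked at. These were short genes, with median lengths of 3.24 and 3.35 kb. Of all genes of 3 to 10 kb 11.8% held a region, and of those under 3 kb 3.46%. The absence from these few genes was not tested.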

How the data were processed

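Methylation was measured by whole-genome bisulphite sequencing in 3 libraries per group. BSMAP, whose version is not given in the sources used here, mapped the reads for the authors. For each DMR they deposited the group levels as a fraction, printed here as a percentage, a difference of levels (fresh minus stored, sign turned here), a p-value and a count of CpG cytosines. The deposited p-values were used only for a threshold. The lists used here hold neither read depth nor levels of single libraries, so precision could not be given and no test was run. No column of per-sample values was left unused (0).

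Groups were taken from the labels. Length was end minus start plus 1, and density was cytosines per 100 bp. Chromosome accessions were matched in order to A1 to B25 of the RefSeq gene table (assembly ASM1834038v1). On each chromosome the ends of the last listed region and of the last annotated gene were 19.5 kb apart in the median (at most 130 kb), and the assignment with the least difference equalled this order for 46 of 50 chromosomes. The table gives gene bounds without exons or strand, so regions were placed in gene bodies (overlap of at least 1 bp) and not in exons, introns or UTRs. Chromosome length was taken as the last annotated gene or region end. Regions on unplaced sequence were left out of positions. Gaps, runs, groups joined at under 1 kb, 100 kb windows and gene counts were computed with Python 3.11.15, pandas 2.3.3, NumPy 2.4.6 and SciPy 1.17.1 and tested on simulated regions.

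Members and lists were chosen with earlier results of these data known. Named genes are the 12 named and 12 LOC genes with the most regions, the 8 with the most per 10 kb (at least 4 regions), up to 8 per direction with at least 6 regions in 1 direction, the genes of the 5 longest runs per direction, of the 6 densest windows, of the 6 tightest groups and of the 6 regions with most cytosines and 4 with the highest and lowest density, and up to 4 members per gene list, of which 1 is not reported here. Alternatives changed the difference minimum, the p limit, the number of cytosines, joining of close regions, gap limits, gene flanks and length definitions.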

Additional observations from a re-analysis of the deposited data

How the results depend on the processing

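Each list holds 1 value per group, so leaving out a replicate was not possible. No paired analysis was possible because the columns are group means without replicate numbers. The hyper share of 62.0% was 51.5% at a minimum difference of 15 points, 57.2% at p below 0.001, 57.1% with at least 6 cytosines, and it passed below 50% at a minimum difference of 20 points (44.9%) and with at least 10 cytosines (45.5%). Fewer regions widened the spacing. The median gap of 23.8 kb became 88.5 kb at 15 points, 246 kb at 20 points, 103 kb at p below 0.001 and 26.0 kb with close regions of the same direction joined, and the share of gaps under 1 kb of 8.34% became 7.38%, 5.10% and 5.28% at the first 3 of these. Region density went from 24.5 to 2.20 per Mb at 20 points and 5.66 at p below 0.001.

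The same-direction share of all neighbours (54.9%) was 51.6% at 15 points, 51.8% at 20 points and 53.7% at p below 0.001, in each case above the 50.0%, 50.6% and 51.1% given by the hyper share. Under 1 kb (60.1%) it was 64.5%, 66.9% and 64.9% at these settings, 62.8% for gaps under 500 bp and 57.7% under 2 kb. With both levels at least 75% it was 59.0% and, chosen after seeing the data, without pairs that share a border base 59.7%. The longest hyper run fell from 29 to 17 regions at 15 points and 16 at p below 0.001, while the longest hypo run stayed between 10 and 13. The median density of 7.25 per 100 bp was 6.15 as cytosines minus 1 over end minus start, 6.58 with exactly 5 cytosines and 10.0 at 20 points, and 7.35 with length as end minus start (chosen after seeing the data). The 749 genes with at least 5 regions became 65 at 15 points and 38 at p below 0.001, and 775 with 1 kb on either side.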
